A study of Mus musculus with 6 samples.

Results

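The core genes of the PI3K, Akt and mTOR pathway were followed in ADC106 cells, a mouse angiosarcoma line, after transfection of an miR-497 mimic. The 8 members are Pik3ca, Pik3cb, Pik3r1, Akt1, Akt2, Mtor, Rptor and Rictor, taken by gene symbol from a table of 55401 mouse gene identifiers. All 8 were found and all 8 passed the filter on low counts, with 1204 to 6697 counts per gene and library. The control group was wild type by its label and had received an NC mimic at 12.5 nM. The other group was labelled as overexpressing miR-497 and had received the miR-497 mimic at 12.5 nM. RNA was taken on day 3, and each group had 3 poly(A)-enriched libraries from this single cell line. The labels do not say whether the 3 came from separate cultures, so the p-values measure the spread between these libraries, which may be technical.

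A microRNA mimic is a short synthetic duplex that loads Argonaute with a guide strand, which then pairs through its seed with matching transcripts and lowers them. Class I PI3K is a lipid kinase built from a catalytic and a regulatory subunit. It is activated below receptor tyrosine kinases and makes a membrane lipid that recruits Akt, a serine/threonine kinase for growth and survival. The kinase mTOR works in a complex with Rptor (mTORC1), which promotes protein synthesis, and in a complex with Rictor (mTORC2), which phosphorylates Akt. In endothelial cells this pathway carries signals from vascular growth factor receptors.

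The mature miR-497a-5p of the mouse is shown with relatives that share its seed, from RefSeq (GRCm38.p6), because the seed defines the sites searched for in the 8 genes. Capitals mark bases 2 to 8, the seed AGCAGCA.
miR-497a-5p: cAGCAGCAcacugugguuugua
miR-195a-5p: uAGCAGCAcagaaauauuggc
miR-16-5p: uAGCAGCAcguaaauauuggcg
miR-15a-5p: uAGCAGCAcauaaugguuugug
A site was TGCTGCTA (8mer), TGCTGCT without the A (7mer-m8) or GCTGCTA without the leading T (7mer-A1), on the transcript strand, in the longest annotated 3' UTR of each gene in GENCODE M21 (GRCm38). These words overlap by construction, and each position was counted once under its longest match, overlapping repeats of a match separately. The labels do not name the strand of the mimic.

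Such a site was found in 3 of the 8 genes. The 5 matches are printed in 30-base windows of the 3' UTR, with the match in capitals, so that they can be set beside the expression values.
Pik3r1 8mer: atagcattggctgcccaggaTGCTGCTAtt
Akt2 7mer-m8: agtgagtgcaggcgatgtgccTGCTGCTct
Rictor 7mer-m8: aagcagacaagggctctaagcTGCTGCTca
Rictor 7mer-A1, upstream: tgagaccagatgtgcgtagggGCTGCTAgt
Rictor 7mer-A1, downstream: tttttttttttttagtaatacGCTGCTAca
The Pik3r1 match lies at chr13:101681084-101681091 on the minus strand, 521 bases before the end of a 3' UTR of 4317 bases. The Akt2 match lies at chr7:27639186-27639192 on the plus strand, in a 3' UTR of 2685 bases. The Rictor matches lie at chr15:6797819-6797825, chr15:6799138-6799144 and chr15:6800085-6800091 on the plus strand, in a 3' UTR of 4165 bases.

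**Figure D1:**
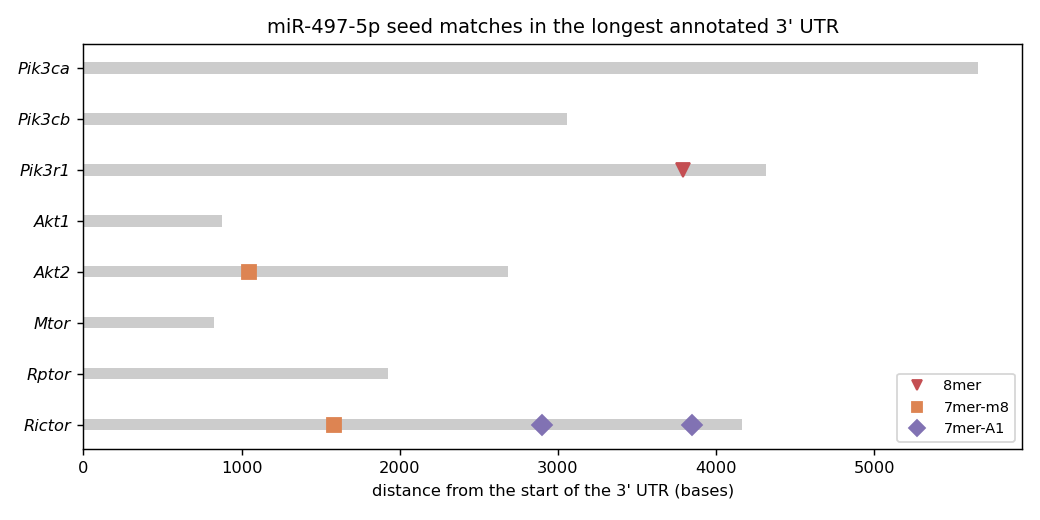
Longest annotated 3' UTR of each gene (grey bars, distance in bases from its start) with miR-497-5p seed matches marked by kind. Among the 8 genes, Pik3r1, Akt2 and Rictor carry 1, 1 and 3 matches.

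These sites are common words. Of the 12860 tested genes with a 3' UTR, 28.1% had at least 1 site and 4.61% had an 8mer. Among genes whose 3' UTR was within 20% of the length of that of Rictor, 60.3% had a site and 10.2% had 3 or more. For the length of Pik3r1 these shares were 61.2% for any site and 10.4% for an 8mer, and for the length of Akt2 44.9% had a site. Pik3ca had no 7mer or 8mer in 5655 bases, whereas 68.5% of genes of similar length had one. Akt1, Pik3ca, Mtor and Rptor held only the 6mer inside these sites, and Pik3cb held none. In the shortest annotated 3' UTR only Rictor kept its sites, but its shortest and longest annotated 3' UTR are the same. Its sites could therefore not be lost. The shortest of Akt2 has 29 bases, and its other annotated 3' UTRs, of 1200 to 2685 bases, hold the site. The counts do not tell which 3' UTR these cells used.

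Expression was given as CPM, the counts scaled to a common total by library size and a between-library factor (TMM), both taken over the tested genes. With miR-497, 5 of the 8 genes (62.5%) fell, namely Mtor, Rictor, Pik3r1, Pik3cb and Rptor, and none rose (edgeR quasi-likelihood test, Benjamini-Hochberg adjusted p under 0.05 over 14661 genes). Across all tested genes 26.0% fell and 23.8% rose, together 49.8%, so changes of this kind were common in these libraries. The balance depended on the scaling, from 3490 higher and 3817 lower genes here to 3998 and 3422 with upper-quartile scaling and 3961 and 3325 with the GC and length offsets. The libraries of both groups did not overlap for 5 of the 8 genes that were lower and for 1, Akt2, that was higher, against 29.6% and 27.8% of all tested genes. At an unadjusted p under 0.05 Akt2 was the 1 gene that was higher, and DESeq2 called 0 higher and 4 lower. The 5 falls were small, between 10.8% for Rptor and 25.2% for Mtor. The median log2 fold change of the 8 genes was -0.17, against -0.02 for all tested genes. The falls of Pik3cb and Rptor were not called under every setting tried, and 3 genes fell with upper-quartile scaling, with the replicate block and offsets together, or without NC library 1. In bulk RNA, fewer cells of a type and less RNA per cell cannot be told apart.

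**Figure D2:**
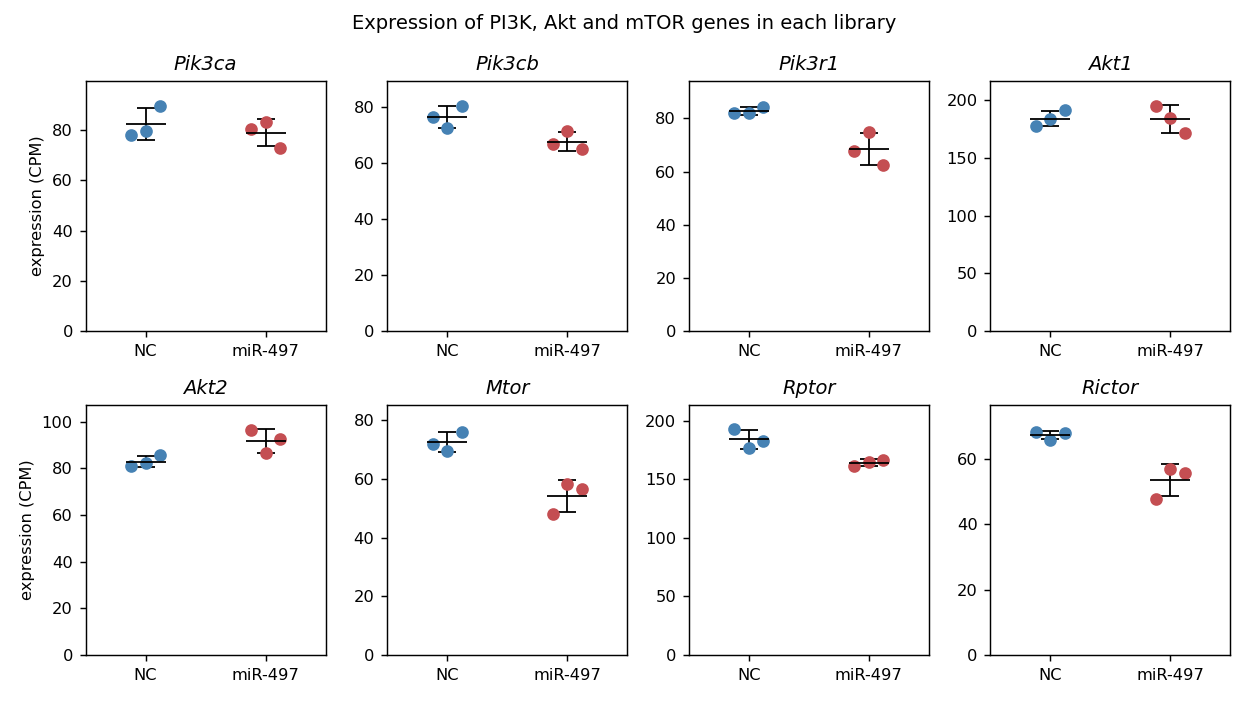
Expression of the 8 genes in CPM (vertical axes from 0) in each of the 3 NC (blue) and 3 miR-497 (red) libraries, with the group mean and SD. The groups do not overlap for Mtor, Rictor, Rptor, Pik3r1 and Pik3cb, which are lower with miR-497, or for Akt2, which is higher.

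The libraries held 25777676 to 36159499 counts. Endothelial identity was checked with 12 markers, all of which were detected, with summed levels of 9969 to 10679 CPM in NC and 9647 to 10141 CPM in miR-497 libraries. Of the 12, 7 rose (58.3%, against 23.8% of all tested genes) and 4 fell (33.3%, against 26.0%). Pecam1, an endothelial junction gene and the most abundant of those that fell, was at 3554 ± 155 CPM with NC and 2471 ± 126 with miR-497 (SD, n = 3). Cdh5, the most abundant of those that rose, was at 2169 ± 104 and 2484 ± 49.4 CPM. Emcn had the largest log2 fold change of the 12, from 373 ± 3.80 to 764 ± 50.2 CPM. Among 5 leukocyte markers, Itgam and Cd3e were listed at 0 in all libraries (68.7% of the exon bases of Itgam are shared with another gene on the same strand, so its 0 may not show the level of the transcript), Ptprc was at 0.156 ± 0.0403 and 0.185 ± 0.0533 CPM, Adgre1 was at 0 in all miR-497 libraries, and Cd68, a lysosomal protein gene, was at 8.25 ± 0.197 CPM with NC and 17.5 ± 2.39 with miR-497. Summed epithelial markers stayed at 0.394 to 1.12 CPM. The 6 fibroblast and mural markers summed to 192 to 202 CPM with NC and 247 to 292 with miR-497. Of these, 2, Col1a1 and Acta2, rose (33.3%, against 23.8% of all tested genes). Pdgfrb fell (16.7%, against 26.0%), from 52.8 ± 3.35 to 40.8 ± 7.13 CPM. Mitochondrially encoded transcripts made up 2.03% to 2.15% of counts in NC and 2.94% to 3.77% in miR-497 libraries. The part of these shifts in the results below was not tested.

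The PI3K subunits came first. Pik3ca (ENSMUSG00000027665, chr3:32397671-32468486) encodes the alpha catalytic subunit, the form most used downstream of receptor tyrosine kinases. It measured 78.2, 79.7 and 89.7 CPM in NC libraries 1 to 3 and 80.6, 83.3 and 72.9 CPM in miR-497 libraries 1 to 3. The groups overlapped, and the log2 fold change of -0.06 (adjusted p = 0.473 by edgeR, SE 0.0689) did not pass the test. Its 95% interval ran from -0.21 to 0.08, so a fall of the size seen in Pik3r1 lay outside it.

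Pik3cb (ENSMUSG00000032462, chr9:99036654-99140621), the beta catalytic subunit, measured 76.5, 72.5 and 80.4 CPM with NC and 66.7, 71.3 and 65.0 CPM with miR-497. Every miR-497 library lay below every NC library. The log2 fold change was -0.17 (adjusted p = 0.031 by edgeR, SE 0.0636). This call was lost with other scalings, DESeq2, the GC and length offsets and the replicate block, with adjusted p from 0.0149 to 0.22 over the alternatives. It was also lost without NC library 1 (adjusted p = 0.0537 by edgeR), NC library 3 (0.141), miR-497 library 1 (0.0786) or miR-497 library 3 (0.107).

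Pik3r1 (ENSMUSG00000041417, chr13:101680563-101768217) encodes the main regulatory subunit, which stabilises the catalytic subunits and holds them inactive until a receptor binds. Its levels were 82.0, 82.0 and 84.4 CPM with NC and 67.9, 74.8 and 62.6 CPM with miR-497. The NC libraries lay close together, and all 3 miR-497 libraries were lower. Expression fell by 17.3%, a log2 fold change of -0.27 (adjusted p = 0.00258 by edgeR, SE 0.0671). This is the gene whose 3' UTR holds the 8mer printed above, and a shorter annotated 3' UTR of 1216 bases lacks it.

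Among the Akt kinases, Akt1 (ENSMUSG00000001729, chr12:112653821-112674884), the widely expressed form, measured 178, 183 and 191 CPM with NC and 195, 185 and 171 CPM with miR-497. The highest and the lowest value both came from the miR-497 group. Its log2 fold change of -0.0029 (adjusted p = 0.972 by edgeR, SE 0.0571) had a 95% interval from -0.12 to 0.12. The sign was positive under 8 of the 14 alternatives and none passed the test.

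Akt2 (ENSMUSG00000004056, chr7:27591552-27640826), the form best known for insulin-dependent glucose uptake, measured 80.9, 82.3 and 85.6 CPM with NC and 96.3, 86.4 and 92.5 CPM with miR-497. All 3 miR-497 values were higher, although libraries NC 3 and miR-497 2 were close. The log2 fold change was 0.15 (SE 0.0591), and the edgeR adjusted p of 0.0517 narrowly missed the threshold. It passed under 7 of the 14 alternatives, with adjusted p from 0.0105 to 0.194, among them the fits without NC library 3 (adjusted p = 0.0355 by edgeR) and without miR-497 library 2 (0.0191). Akt2 is also the gene that carries a 7mer-m8 site and did not fall.

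The mTOR kinase gene itself, Mtor (ENSMUSG00000028991, chr4:148448611-148557683), had the largest change of the 8. It measured 72.0, 69.6 and 76.1 CPM with NC and 47.9, 58.2 and 56.5 CPM with miR-497. The groups were well apart, with library miR-497 1 the lowest. Expression fell by 25.2%, with a log2 fold change of -0.42 (adjusted p = 0.000173 by edgeR, SE 0.0749), and it was called under all 14 alternatives, between -0.47 and -0.34. Its 3' UTR of 823 bases had no 7mer or 8mer site. Its coding sequence of 7650 bases held 4 matches, and 83.1% of tested genes with a coding sequence of similar length held at least 1. Whether 4 is usual at that length was not tested. The coding sequence of Rptor held 2 and that of Pik3r1 held 1, and those of Akt1, Akt2, Pik3ca, Pik3cb and Rictor held 0.

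Rptor (ENSMUSG00000025583, chr11:119602905-119899576), the mTORC1 scaffold that recruits substrates, measured 193, 177 and 183 CPM with NC and 161, 165 and 167 CPM with miR-497. The miR-497 libraries lay close together and below all NC libraries. The log2 fold change was -0.17 (adjusted p = 0.0138 by edgeR, SE 0.0519). Without NC library 1, the highest, it was -0.14 (edgeR adjusted p = 0.0597). An antisense gene, Rptoros, covers 0.624% of its exon bases.

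Rictor (ENSMUSG00000050310, chr15:6708379-6800401), the defining subunit of mTORC2, measured 68.2, 65.9 and 68.1 CPM with NC and 47.9, 56.9 and 55.8 CPM with miR-497. As for Mtor, library miR-497 1 was the lowest. Rictor fell by 20.5%, a log2 fold change of -0.33 (adjusted p = 0.000924 by edgeR, SE 0.0711), and was called under all 14 alternatives. It is the gene with 3 sites in its 3' UTR. Thus 2 of the 5 genes that fell and 1 of the 3 that were not called had a site.

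**Figure D3:**
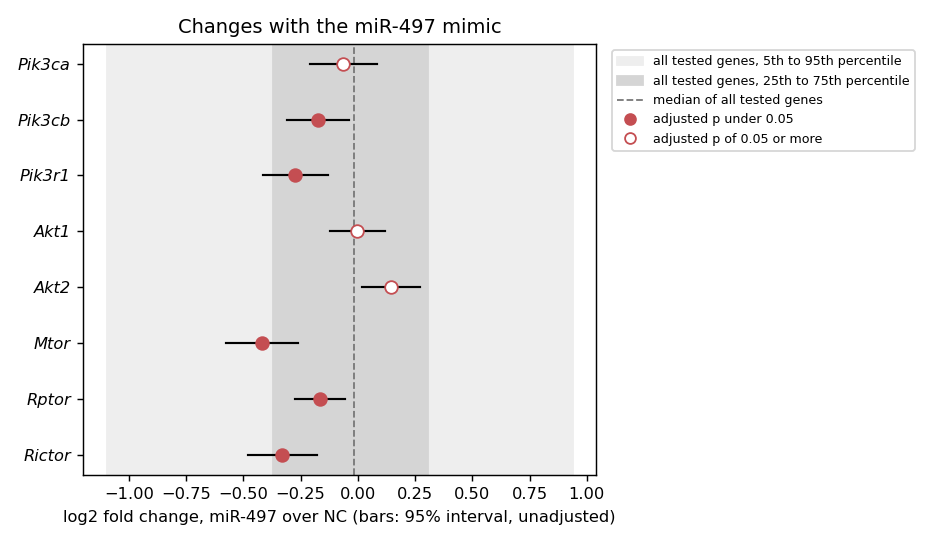
Log2 fold change of each gene, miR-497 over NC (points, filled where the edgeR adjusted p was under 0.05), with unadjusted 95% intervals. Mtor, at -0.42, lies outside the middle 50% of all tested genes (dark band), and the other 7 lie inside it.

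Rictor, Rptor, Mtor and Pik3r1 have long annotated exons, 16930, 13471, 10109 and 10079 bases in all, so long genes are given as context. Pik3ca, Pik3cb and Akt2, at 9088, 7193 and 7131 bases, are also above 7 kb, and of these only Pik3cb was called lower. Akt1 has 4098 bases. Tested genes with at least 7 kb of exon numbered 3288, of which 29.4% fell and 26.9% rose, with a median log2 fold change of -0.01. With per-library offsets for GC content and length, Mtor, Rictor, Pik3r1 and Rptor were called lower and Pik3cb was not. With the offsets and the replicate block together, Rptor was not called either. The part of exon length in these falls was not tested.

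Ratios between genes within a library need no scaling between libraries. The log2 ratio of Pik3r1 to Pik3ca was 0.07, 0.04 and -0.09 with NC and -0.25, -0.16 and -0.22 with miR-497, a difference of -0.22. For Rictor to Rptor the difference was -0.17, from a mean of -1.45 ± 0.0416 with NC to -1.62 ± 0.112 with miR-497 (SD, n = 3). The Akt1 to Akt2 ratio differed by -0.15, and the Pik3ca to Pik3cb ratio by 0.11. In all 4 ratios the groups did not overlap. Such separation was common for single genes (29.6% of tested genes lower and 27.8% higher), and its share among other ratios was not tested. Each ratio gave p = 0.1 in an exact two-sided permutation test, the smallest that 3 against 3 allows (0.1 after adjustment over the 4). No ratio could therefore pass 0.05. Without miR-497 library 3 the Akt1 to Akt2 difference was -0.09, without miR-497 library 1 the Rictor to Rptor difference was -0.11, and without NC library 1 the Pik3ca to Pik3cb difference was 0.07. Within these pairs, Pik3r1 was lower relative to Pik3ca, Rictor relative to Rptor, Akt1 relative to Akt2 and Pik3cb relative to Pik3ca in the miR-497 libraries.

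Levels of different genes were compared only per kb of annotated exon. With NC, Akt1 was highest at 44.9 ± 1.65 CPM per kb and Rictor lowest at 3.98 ± 0.0760 (SD, n = 3). Between them stood Rptor at 13.7, Akt2 at 11.6, Pik3cb at 10.6, Pik3ca at 9.08, Pik3r1 at 8.21 and Mtor at 7.18 CPM per kb, and no neighbours in this order overlapped across the 3 libraries. With miR-497, Akt2 stood at 12.9 and Rptor at 12.2 CPM per kb and their libraries overlapped, as did those of Pik3cb at 9.41 and Pik3ca at 8.69. Exons that these cells do not use would lower such values, and the deposited counts do not show which are used.

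Other genes of the pathway were counted in 9 lists of 110 genes, of which 103 were tested. Of these, 34 rose (33.0%), 33 fell (32.0%) and 36 were not called, against 23.8% and 26.0% of all tested genes. A site stood in the 3' UTR of 19 of the 33 lower, 10 of the 34 higher and 10 of the 36 genes not called. Over all tested genes with a 3' UTR the share was 28.1%, not split by direction, and 3' UTR length was not matched. Whether sites go with direction in this pathway was not tested.

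Of 7 other genes listed with class I PI3K, not all of them subunits, 2 rose (28.6%, against 23.8% of all tested genes) and 1 fell (14.3%, against 26.0%). Pik3r3, another regulatory subunit, rose from 80.6 ± 1.01 to 90.4 ± 1.72 CPM (log2 fold change 0.17; SD, n = 3), while Pik3r6, a regulatory subunit of the gamma enzyme, fell from 36.1 ± 1.89 to 30.3 ± 2.50 (-0.25). Pik3r3 lost its call without NC library 1 (adjusted p = 0.0868 by edgeR) or NC library 2 (0.0722), with no filter (0.0509) and with the replicate block (0.0542). Pik3r6 lost it without NC library 1 (adjusted p = 0.0519 by edgeR) or miR-497 library 1 (0.0604), with the GC and length offsets (0.0664) and with these and the block (0.0973). Pik3r3 shares 24.3% of its exon bases with another gene on the same strand, so its value is uncertain. Pik3r5 had a log2 fold change of 1.48 at 0.764 ± 0.151 and 2.14 ± 0.424 CPM, a level under the limit set for naming genes, and is given because its value stood out. Of 5 class II and III genes, Pik3c2a, with 12.3% of its exon bases shared with a gene on the other strand, fell by 0.30 on the log2 scale and Pik3r4, which serves the autophagy lipid kinase, had a log2 fold change of 0.25, a call lost without NC library 2 (adjusted p = 0.0569 by edgeR).

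Phosphatases that oppose the pathway moved in both directions. Of 8, 5 were lower (62.5%, against 26.0% of all tested genes) and 1 was higher (12.5%, against 23.8%). Inpp4b, which removes a phosphate from a PI3K product, fell from 43.5 ± 3.50 to 22.3 ± 1.00 CPM (log2 fold change -0.97; SD, n = 3, edgeR adjusted p = 2.78e-08). Phlpp2, which dephosphorylates Akt, fell from 45.4 ± 5.89 to 25.9 ± 3.47 CPM (-0.81). Inpp5k rose from 23.4 ± 0.794 to 33.9 ± 1.07 CPM (0.54).

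At the level of Akt, 3 of 5 other kinases and inhibitors fell (60.0%, against 26.0% of all tested genes by edgeR) and 0 rose (against 23.8%). DESeq2 and an unadjusted p under 0.05 gave the same counts. The 3 that fell were Sgk1, Sgk2 and Sgk3, kinases related to Akt that also respond to mTORC2. Sgk1 fell from 322 ± 11.2 to 214 ± 5.52 CPM (log2 fold change -0.59, adjusted p = 7.11e-08 by edgeR; SD, n = 3). Sgk2 had the largest log2 fold change, -1.27, but at 3.17 ± 0.300 and 1.29 ± 0.604 CPM (SD, n = 3). Pdpk1, the kinase that activates Akt, was at 64.0 ± 2.86 and 63.7 ± 2.70 CPM and was not called.

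Of 6 other mTOR complex subunits, 3 fell and 1 rose, against 26.0% lower and 23.8% higher among all tested genes. The 3 that fell, Mapkap1, Prr5 and Prr5l, are mTORC2 subunits, as is Rictor. The falls were not confined to mTORC2. The mTORC1 scaffold Rptor (log2 fold change -0.17) and Mtor, which works in both complexes (-0.42), were also called lower. Mapkap1, an essential mTORC2 subunit, fell from 55.1 ± 3.78 to 39.3 ± 2.55 CPM (log2 fold change -0.49; SD, n = 3, edgeR adjusted p = 3.78e-05), and all but 1 of the 25 matches counted in its 3' UTR overlap within a single repeat. Prr5l fell by 0.42 on the log2 scale. Akt1s1, an mTORC1 inhibitor that Akt phosphorylates, rose from 62.3 ± 3.37 to 79.9 ± 1.80 CPM (0.36). Mlst8, common to both complexes, had a log2 fold change of -0.21 and was not called (edgeR adjusted p = 0.0644), with 22.5% of its exon bases shared with a gene on the other strand.

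Upstream of mTORC1, 10 of 35 tested genes fell (28.6%) and 9 rose (25.7%), near the 26.0% and 23.8% of all tested genes. Kptn and Wdr24, parts of the amino acid sensing machinery, had log2 fold changes of -0.81 and -0.62. Rhebl1, a relative of the mTORC1 activator Rheb, and Fnip2, a folliculin partner, had log2 fold changes of 0.82 and 0.74. Rhebl1 shares 18.0% of its exon bases with a gene on the other strand and 18.0% with Dhh on its own strand, and its value is uncertain because the handling of strand and overlaps in counting is not given. Seh1l was listed at 0 in all libraries and was not tested.

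Downstream of mTORC1, 9 of 18 tested genes rose and 7 fell, against 23.8% higher and 26.0% lower among all tested genes. Eif4g1, the scaffold of the cap-binding complex, fell from 979 ± 69.3 to 551 ± 45.2 CPM (log2 fold change -0.83; SD, n = 3), and Atg13, an autophagy starter held back by mTORC1, had -0.68. Eef2k, the kinase that slows translation elongation, rose from 11.9 ± 0.627 to 26.4 ± 1.52 CPM (1.15, edgeR adjusted p = 2.17e-08). Grb10, an adaptor that dampens insulin receptor signalling and is stabilised by mTORC1, rose from 217 ± 7.31 to 406 ± 5.32 CPM (0.91, edgeR adjusted p = 3.96e-10).

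Among 10 tested Akt substrates, 5 rose and 2 fell, against 23.8% higher and 26.0% lower among all tested genes. Foxo3, a transcription factor that Akt keeps out of the nucleus, rose from 28.9 ± 0.306 to 52.4 ± 3.92 CPM (log2 fold change 0.86; SD, n = 3), and Bad, a pro-apoptotic protein, rose from 18.7 ± 0.917 to 33.1 ± 1.68 (0.83). For Bad, 20.5% of the exon sequence is shared with the other strand. Tbc1d4, a regulator of glucose transporter traffic, fell from 86.2 ± 5.03 to 45.1 ± 3.32 CPM (-0.93), and Cdkn1b, a cyclin-dependent kinase inhibitor, fell from 71.7 ± 2.34 to 60.7 ± 1.67 (-0.24). The Cdkn1b call was lost with the GC and length offsets (edgeR adjusted p = 0.083).

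Of the 9 tested genes known to be induced by FoxO factors, 6 rose (66.7%, against 23.8% of all tested genes) and 1 fell (11.1%, against 26.0%). The median log2 fold change of the 9 was 0.51, against -0.02 for all tested genes. Klf2, an endothelial transcription factor that also responds to flow, rose from 115 ± 5.52 to 198 ± 12.2 CPM (0.79; SD, n = 3). Bcl6, a transcriptional repressor, rose from 8.92 ± 0.0742 to 14.98 ± 0.713 CPM (0.75). Cited2, a transcriptional co-regulator, fell from 143 ± 1.98 to 129 ± 6.38 CPM (-0.16), a call lost in 7 alternatives, among them the fits without NC library 2 (adjusted p = 0.0796 by edgeR), NC library 3 (0.0871) or miR-497 library 2 (0.115).

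**Figure D4:**
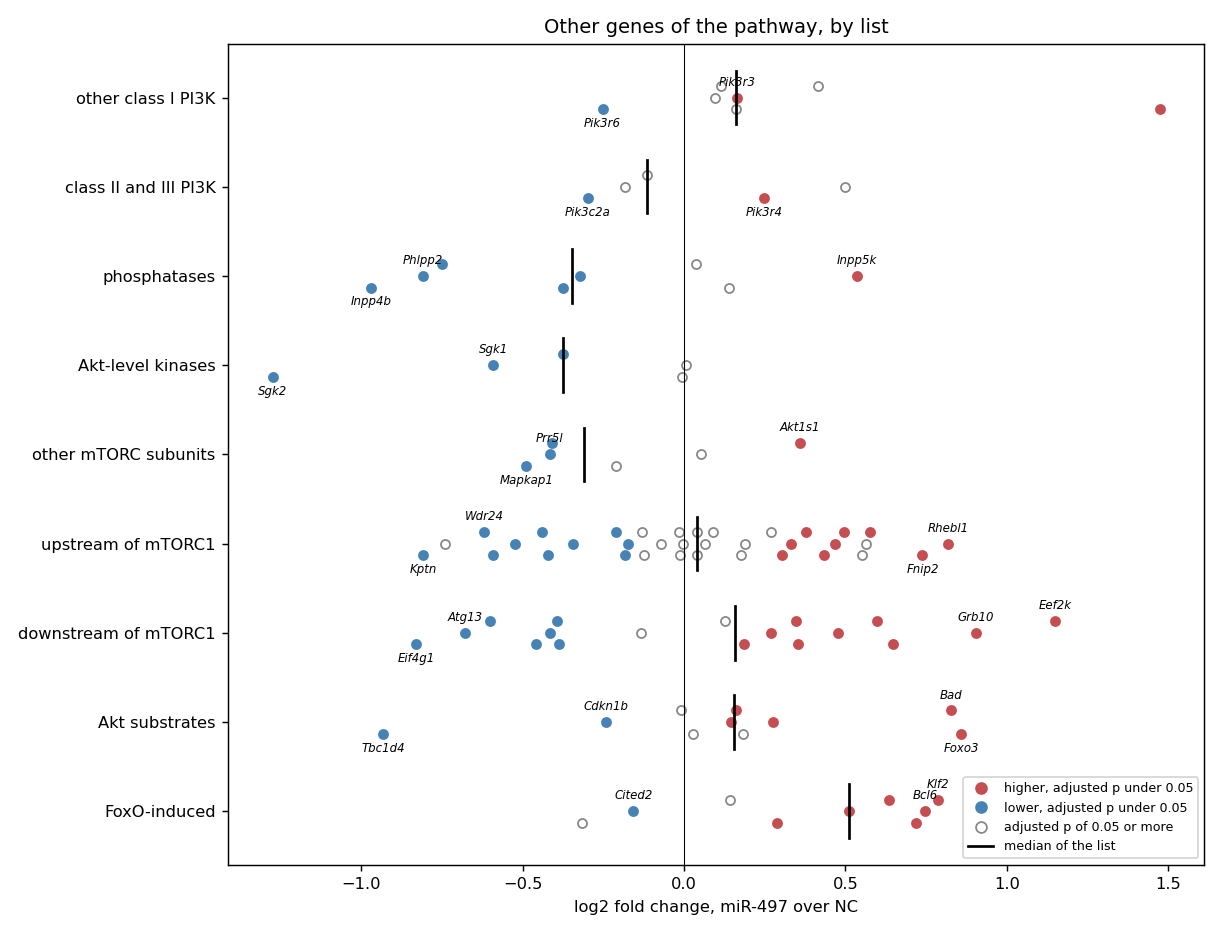
Log2 fold changes, miR-497 over NC, of the 103 tested genes of the 9 lists (points, filled where the edgeR adjusted p was under 0.05), with each list's median as a bar. The median is lowest for the kinases at the level of Akt, at -0.38, and highest for FoxO-induced genes, at 0.51.

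Finally, the listed genes whose values across the 6 libraries lay closest to those of Mtor, relative to each gene's NC mean, were Prr5l, Tsc1 and Tfeb. Their mean absolute differences from Mtor were 0.0366, 0.0616 and 0.0704 on the log2 scale. In library miR-497 1 Mtor stood at -0.60, Prr5l at -0.53, Tsc1 at -0.52 and Tfeb at -0.55. Tsc1, an mTORC1 inhibitor, had a log2 fold change of -0.42, as did Tfeb, a lysosomal gene activator that mTORC1 restrains. With the GC and length offsets Tfeb was at -0.26 and not called (adjusted p = 0.0816 by edgeR), whereas Tsc1 was called in all 14 alternatives.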

How the data were processed

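Poly(A) RNA of 3 NC and 3 miR-497 libraries was quantified as raw read counts per Ensembl gene, deposited by the authors without normalization. Per the submitters' processing notes, the tools were STAR 2.5.4b, featureCounts of Subread 1.6.1 and edgeR 3.32.1, with build GRCm38; their settings, strand use and annotation release are not given in the sources used here. Groups and replicate numbers came from sample titles. GENCODE M21 named 55141 of the 55401 identifiers.

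From the counts, edgeR 4.0.16 (R 4.3.3) was run with filterByExpr (minimum count 10, total 15), TMM and a 2-sided quasi-likelihood test of the group over 14661 genes, with Benjamini-Hochberg adjustment. SE is the log2 fold change divided by the square root of F. Ratios used exact permutation tests. On simulated data, 42% of 1.25-fold and 96% of 1.5-fold changes were recovered among 14383 genes. There, only a small set of genes with mean counts of at least 50 was changed. In the measured data 49.8% of tested genes were called, so these shares need not hold for them.

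The members and lists were chosen with earlier results of these data known. All 8 members are named; from each list, up to 2 genes with the largest rise and 2 with the largest fall among called genes with mean log2 CPM of at least 1; and the 3 listed genes closest to the member with the largest change. Some listed genes are not reported here and are left out of the list counts. Other genes were picked once their values were known. Alternatives were DESeq2 size factors, upper quartile, no filter, a mean count of 50, DESeq2 1.42.0, the replicate block, each library left out and, added after seeing the data, GC and length offsets.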

Additional observations from a re-analysis of the deposited data

How the results depend on the processing

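Akt1 changed sign, with log2 fold changes of 0.0124 with DESeq2 size factors, 0.0431 with upper quartile, 0.0059 with the mean count filter of 50, 0.0106 with DESeq2, 0.11 with GC and length offsets and 0.11 with these and the replicate block, and -0.0484 to 0.0468 without single libraries. Pik3ca did so with offsets (0.0140, with the replicate block 0.0158) and ran from -0.11 to 0.0098 without single libraries. Neither was called in any setting. Akt2 was called with DESeq2 size factors (0.16), upper quartile (0.19), the mean count filter of 50 (0.15), offsets (0.20) and offsets with the replicate block (0.20), and ran from 0.11 to 0.19 without single libraries. In these settings 1 of the 8 genes counted as higher, against 0; without single libraries the count was 0 to 1. Pik3cb was not called with DESeq2 size factors (-0.16), upper quartile (-0.13), the replicate block (-0.17), offsets (-0.13), offsets with the replicate block (-0.13) and DESeq2 (-0.16), and ran from -0.21 to -0.13 without single libraries. Rptor was not called with upper quartile (-0.12) and offsets with the replicate block (-0.15), and ran from -0.19 to -0.14 without single libraries. In both settings 3 of the 8 genes counted as lower, against 5, and 3 to 5 without single libraries. The causes were not tested. Mtor, Rictor and Pik3r1 were called in all 14 alternatives. With the shortest 3' UTR, 1 of the 8 genes had a site, against 3, since fewer bases were searched in Akt2 and Pik3r1. For Rictor the shortest and longest annotated 3' UTR are the same, so its sites could not be lost.

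Same-numbered libraries of both groups had correlations of -0.133 to -0.0351, so the numbers were not taken as pairs. With the replicate block 4 of the 8 genes were lower; the 4 ratio differences cannot change in this balanced design, and their sign-flip p cannot go below 0.25. The median over all tested genes moved by at most 0.0501 (log2) in any setting. Of 406 pairs of another named gene and an alternative, 386 kept direction and call and 20 lost the call.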
